A study of Mus musculus with 2 samples.

Results

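The transcripts of S100a4, S100a6, S100a8, S100a9, S100a10 and S100a11 were followed through the immune cells of the mouse aortic adventitia, the outer layer of the vessel wall. These 6 genes were taken by symbol from the 55386 features of the count matrix, in both libraries, whatever their values. Each library was a droplet library of sorted CD45+ cells, in which unique molecular identifiers (UMIs) allow each captured transcript molecule to be counted a single time. The steady-state library pooled 3 animals and the AngII library pooled 2 animals, all 16 weeks old. The AngII animals had received angiotensin II, a hormone that raises blood pressure and inflames the vessel wall, at 1.8 µg per kg per min for 10 days from osmotic pumps. Animals of both groups carried Rank-Cre and the Rosa26-eYFP reporter. Cre made from the Rank gene switches on the reporter (Yfp) in early erythro-myeloid progenitors and their descendants, and cells that later turn on Rank would be marked as well. Since each condition was 1 library, no difference between conditions had a replicate check, and all intervals given here are 95% intervals that cover counting error only.

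S100 proteins are small calcium sensors with a pair of EF-hand calcium-binding sites, which act as dimers on partner proteins. S100A8 and S100A9 join into calprotectin, an abundant cytosolic complex of neutrophils that is released on injury and then acts as an alarmin on TLR4. S100A4 and S100A6 bind cytoskeletal and annexin partners in motile cells, S100A10 has lost calcium binding and holds annexin A2 at the membrane, and S100A11 is a partner of annexin A1.

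After removal of barcodes outside 300 to 6500 detected genes or above 5% mitochondrial UMIs, 306 of 346 barcodes remained at steady state and 4198 of 4419 on AngII. The libraries shared 0 barcodes. Depth differed strongly, with a median of 9105 UMIs per cell at steady state and 1092 on AngII. Cells were placed in classes by 18 lists of marker genes that held no S100 gene, which gave a class to 278 cells (90.8%) at steady state and 2918 cells (69.5%) on AngII. Of the large classes, resident macrophages (Lyve1, Folr2, Cbr2) held 106 and 533 cells, macrophages led by Ear2 and Retnla 22 and 270, T cells 36 and 258, and B cells 49 and 93. Classical monocytes (Ly6c2, Chil3) held 7 cells at steady state and 164 on AngII, and neutrophils (Csf3r, Retnlg) 3 and 103. Classical type 1 dendritic cells (cDC1; Xcr1, Clec9a) held 11 and 120 cells. The 10 leading genes of each of these classes held its own markers in both libraries, while those of AngII classical monocytes also held 3 immunoglobulin genes and Jchain, and 1 of the 164 cells had 63.8% immunoglobulin UMIs (median 0). In addition, the 5 steady-state cells gated as cDC2 were led by cell-cycle genes and are not used. Levels are CPM, the UMIs of a gene per 1000000 UMIs of all genes in the cells of a class. Because 3′ libraries count molecules, these levels were not divided by gene length.

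All 6 genes lie on chromosome 3 (GRCm38, GENCODE M21, positions counted from 1) and code for proteins. S100a4 (ENSMUSG00000001020.8, chr3:90603771-90606045) and S100a6 (ENSMUSG00000001025.8, chr3:90612882-90624181) lie on the plus strand. S100a8 (ENSMUSG00000056054.9, chr3:90668978-90670035, plus strand) and S100a9 (ENSMUSG00000056071.12, chr3:90692632-90695721, minus strand) face each other with 22596 bases between their ends. S100a11 (ENSMUSG00000027907.4, chr3:93520488-93526287) and S100a10 (ENSMUSG00000041959.14, chr3:93555080-93564643), both on the plus strand, form a separate group 2824767 bases further along the chromosome. S100a4 overlaps the predicted gene Gm42674 on the same strand, to which 0 UMIs were assigned in either library. The processed pseudogene S100a11-ps on chromosome 12 held 0 and 2 UMIs.

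S100a8, S100a9 and S100a11 were the members at least 2 times higher in neutrophils than in classical monocytes on AngII, and the sequences before their starts are shown for that reason. They end at the RefSeq start of each gene or, for S100a8 and S100a11, at the GENCODE start before it (GRCm38.p6), run 5′ to 3′ on the strand of the gene, and carry matches to the searched motifs in capitals.
S100a8 (chr3:90668821-90668977, plus strand): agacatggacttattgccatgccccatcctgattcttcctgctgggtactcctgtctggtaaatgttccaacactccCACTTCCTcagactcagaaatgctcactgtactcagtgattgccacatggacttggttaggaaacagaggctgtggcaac
S100a9 (chr3:90695722-90695971, minus strand): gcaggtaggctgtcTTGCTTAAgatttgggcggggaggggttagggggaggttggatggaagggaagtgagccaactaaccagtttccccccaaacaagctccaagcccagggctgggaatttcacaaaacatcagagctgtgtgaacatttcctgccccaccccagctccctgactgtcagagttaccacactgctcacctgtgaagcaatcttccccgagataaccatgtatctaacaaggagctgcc
S100a11 (chr3:93520246-93520487, plus strand): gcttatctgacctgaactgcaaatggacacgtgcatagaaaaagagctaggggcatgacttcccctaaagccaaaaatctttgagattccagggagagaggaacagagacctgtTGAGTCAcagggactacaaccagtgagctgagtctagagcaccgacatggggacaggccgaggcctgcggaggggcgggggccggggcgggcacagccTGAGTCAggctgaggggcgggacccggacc
The motifs were TTGCNNAA (C/EBP), TGANTCA (AP-1) and AGGAAGTG (ETS), searched on both strands. S100a8 held 1 ETS match, read on the opposite strand as CACTTCCT, 173 to 166 bases before its RefSeq start. S100a9 held 1 C/EBP match, TTGCTTAA, 236 to 229 bases before its RefSeq start. S100a11 held TGAGTCA at 2 places, 136 to 130 and 38 to 32 bases before its RefSeq start. No match overlapped another. Of 32851 windows of 250 bases before RefSeq starts, 9.56% held the C/EBP motif, 6.75% the AP-1 motif and 3.14% the ETS motif, so each also stands before many other starts. These shares are of windows with at least 1 match, and windows with 2 AP-1 matches, as in S100a11, were not counted. The windows of S100a8 and S100a11 are shorter than those counted. A match describes letters and not binding.

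The calprotectin genes were held mainly by neutrophils at steady state and were found in many classes on AngII. In the 3 steady-state neutrophils, S100a8 held 642, 255 and 106 UMIs, or 76512 CPM together, and S100a9 reached 85056 CPM. All 106 resident macrophages together held 1 UMI of each gene, or 0.899 CPM. The 49 B cells held 0 UMIs of both, which allows up to 10.7 CPM when bounded at 3 UMIs (upper Poisson limit 13.1 CPM). The 89 T, B and NK cells held 1 UMI of S100a8 and 0 of S100a9. Neutrophils, 0.980% of the cells, thus held 77.3% of the S100a8 UMIs and 75.1% of the S100a9 UMIs, and most of the remainder lay in 2 cells that fell between classes, with 218 and 52 S100a8 UMIs.

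On AngII, neutrophils again stood far above the other classes. S100a8 reached 28340 CPM (27792 to 28897) and S100a9 32328 CPM (31741 to 32922) in the 103 neutrophils. The median neutrophil held 39 UMIs of S100a8 and 42 of S100a9, the highest held 876 and 972, and 8 and 6 neutrophils held 0. With 3 cells at steady state, no ratio between the libraries is given for neutrophils. Neutrophils were 2.45% of the cells and held 55.7% of the S100a8 UMIs and 56.9% of the S100a9 UMIs. Cells that fell between classes held much of the rest, at 1331 CPM of S100a8.

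Outside neutrophils, the S100a8 level on AngII was 510 CPM (484 to 537) in macrophages without a named type and 475 CPM (435 to 517) in classical monocytes, and these intervals overlapped. The level was 382 CPM in Ear2-type macrophages, 275 CPM in reparative macrophages (Arg1, Spp1) and 207 CPM (192 to 223) in resident macrophages, 3 levels whose intervals did not overlap. The order of the last 2 turned without the 3 highest cells of each class. S100a8 was then at 66.1 CPM (51.2 to 84.1) in reparative and 136 CPM (123 to 149) in resident macrophages, and S100a9 at 35.1 CPM and 121 CPM. With all cells, S100a8 was at 122 CPM in cDC1 and 119 CPM in migratory dendritic cells, which were not separated. Lymphocytes gave the background of free RNA, with 68.8 CPM (54.9 to 85.2) in T cells and 13.2 CPM (4.29 to 30.9) in B cells. The 11 NK cells held 0 UMIs, which allows up to 52.9 CPM. Among classes of at least 20 cells, S100a9 followed the same order down to cDC1, from neutrophils and 520 CPM in macrophages without a named type through 216 CPM in resident macrophages to 137 CPM in cDC1, with 70.4 CPM in T cells and 18.5 CPM in B cells. The 2 lymphocyte classes did not share a level, at 5.20 times more S100a8 in T cells than in B cells (2.14 to 16.4). On AngII, 40 of the 258 T cells and 29 of the 93 B cells also held gate markers of a myeloid class, and S100a8 stood at 135 CPM (92.0 to 190) in these 40 T cells and at 52.9 CPM (39.5 to 69.4), or 52 of 84 UMIs, in the other 218. The 64 B cells without such markers held 0 S100a8 UMIs.

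**Figure D1:**
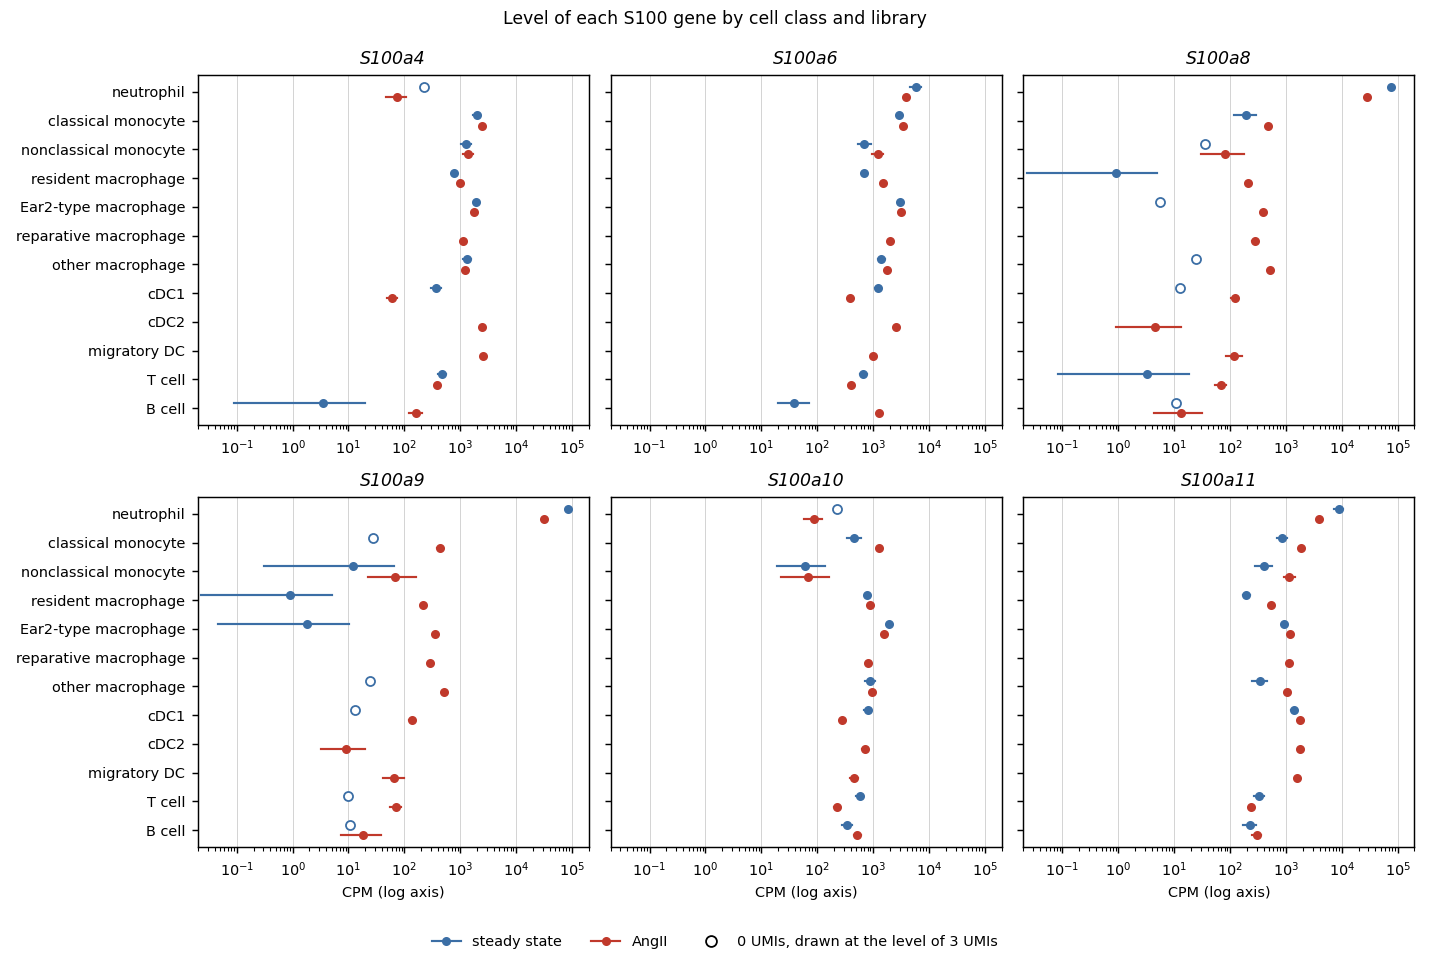
Level of each of the 6 genes in CPM (log axis) by cell class, at steady state (blue) and on AngII (red), with exact Poisson 95% intervals and open circles at the level of 3 UMIs where none were found. S100a8 and S100a9 stand apart in neutrophils, at 28340 and 32328 CPM on AngII, while S100a4 and S100a10 are lowest or near their lowest there. Of the classes, 12 are drawn, and of these, groups under 7 cells are left out except the 3 steady-state neutrophils. Mast cells (7 cells at steady state, 19 on AngII), which also carried S100a8 and S100a9 on AngII, are among the classes not drawn.

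At equal depth, each cell thinned to 1000 UMIs and shallower cells left out, 86.7% of 90 neutrophils held an S100a8 UMI (92.2% of 103 before thinning). The share was 14.4% (11.1 to 18.2) of 403 resident macrophages (21.4% before), 25.7% of 175 Ear2-type macrophages and 10.1% of 99 classical monocytes. In the classes that serve as background it was 9.15% (5.09 to 14.9) of 153 T cells and 1.59% (0.040 to 8.53) of 63 B cells. The intervals of resident macrophages and T cells overlapped, so the share in resident macrophages was not separated from that in T cells at this depth, whereas the CPM was 3.01 times higher in resident macrophages (2.40 to 3.83).

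Few cells carried most of the calprotectin transcripts outside neutrophils. Cells with at least 10 S100a8 UMIs held 64.1% of the S100a8 UMIs of resident macrophages (14 cells), 72.9% of those of Ear2-type macrophages (18 cells) and 89.5% of those of classical monocytes (4 cells, with 188, 156, 70 and 65 UMIs). In reparative macrophages 3 such cells held 77.1%. Among T cells, 1 cell with 12 UMIs held 14.3%. The highest resident macrophages held 124, 82, 44 and 37 UMIs. In classical monocytes the level therefore turned on a handful of cells, and without the 3 highest cells of each class S100a8 was 0.840 times as high in classical monocytes as in resident macrophages, against 2.29 times with them.

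S100a9 was counted 1.14 times (1.11 to 1.17) for each S100a8 UMI in AngII neutrophils and 1.11 times (1.02 to 1.21) in the 3 steady-state neutrophils. On AngII the ratio was 1.04 (0.939 to 1.16) in resident macrophages, 1.12 in cDC1, 1.02 in T cells and 1.12 in mast cells, with intervals that held the neutrophil value. It was 0.915 (0.814 to 1.03) in Ear2-type macrophages, 1.02 (0.946 to 1.1) in macrophages without a named type and 0.903 (0.797 to 1.02) in classical monocytes, with intervals below that value. Single cells weighed on this split, as 1 classical monocyte held 65 S100a8 and 0 S100a9 UMIs. In the other direction, 1 resident macrophage held 37 S100a8 and 125 S100a9 UMIs. Ratios without these cells were not computed, so the split between classes is not a firm one. Migratory dendritic cells had the lowest ratio, 0.548 (0.314 to 0.932), from 42 S100a8 UMIs of which 27 lay in 1 cell. At steady state, 21 S100a8 UMIs of the 7 classical monocytes, 17 of them in 1 cell, came with 0 S100a9 UMIs. Retnlg encodes a resistin-like secreted protein of neutrophils and was a marker of the neutrophil gate, which therefore shaped its level in each class. It was counted 6.79 times per 100 S100a8 UMIs in AngII neutrophils and 6.35 times in resident macrophages (37 of 44 UMIs in 1 cell). The value was 1.21 in macrophages without a named type and 1.19 in T cells (1 UMI). Whether the S100a8, S100a9 and Retnlg transcripts outside neutrophils were made in the cell or came from free RNA or a second cell in the droplet was not tested.

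**Figure D2:**
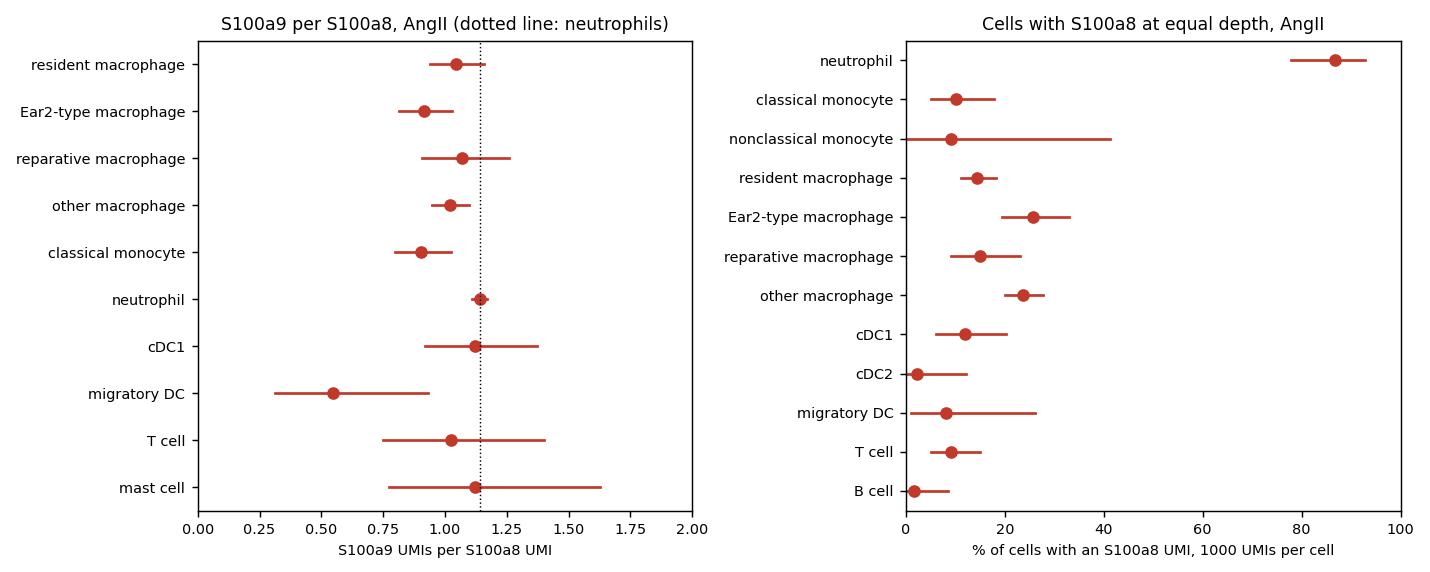
Left, S100a9 UMIs per S100a8 UMI by class on AngII with 95% intervals, the dotted line marking the neutrophil value of 1.14. Right, the percentage of cells with an S100a8 UMI at 1000 UMIs per cell, with Clopper-Pearson 95% intervals for 12 classes. The neutrophil share of 86.7% stands far to the right of the other classes drawn, whose shares lie between 1.59% and 25.7%. NK cells, ILC2 and pDC, with 0 of 9, 8 and 7 such cells, and mast cells are not drawn on the right.

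Mast cells (Cpa3, Cma1) on AngII also carried both genes, with 58 S100a8 UMIs (2304 CPM, 1750 to 2979) in 15 of 19 cells and 65 S100a9 UMIs. No single mast cell led this, as the highest held 13 S100a8 UMIs. They were shallow, with a median of 783 UMIs, and only 5 reached 1000 UMIs. The 7 steady-state mast cells held 0 UMIs of both genes, which allows up to 94.8 CPM.

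S100a4, once named fibroblast-specific protein and now known from motile leukocytes as well, was high in monocytes, Ear2-type macrophages and some dendritic and innate lymphoid classes and low in neutrophils and B cells. At steady state its level was 1891 CPM (1778 to 2010) in Ear2-type macrophages, 1987 CPM (1732 to 2268) in classical monocytes and 788 CPM (736 to 842) in resident macrophages. The 4 NK cells held 1544 CPM (1213 to 1939) and the 6 innate lymphoid cells of type 2 (ILC2) 1236 CPM (952 to 1579), both above resident macrophages. B cells held 1 UMI, or 3.56 CPM, and neutrophils 0 of 13109 UMIs, which allows up to 229 CPM. On AngII the level was 2589 CPM in migratory dendritic cells, 2504 CPM in classical monocytes and 2503 CPM in cDC2, whose intervals overlapped. Ear2-type macrophages followed with 1772 CPM, resident macrophages with 1004 CPM, T cells with 384 CPM and B cells with 161 CPM. The 9 ILC2 stood at 1578 CPM (1295 to 1903) and the 11 NK cells at 811 CPM (594 to 1082). Among classes of at least 20 cells, neutrophils, at 72.6 CPM (47.4 to 106), and cDC1, at 59.9 CPM (48.3 to 73.5), were lowest and not separated from each other, and the 10 plasmacytoid dendritic cells (pDC) held 3 UMIs, or 50.8 CPM. In neutrophils, 87 of 103 cells held 0 S100a4 UMIs.

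S100a6, or calcyclin, whose transcript is common in activated and dividing cells, joined the same classes with neutrophils added. At steady state it reached 5798 CPM in neutrophils (76 UMIs), 3017 CPM in Ear2-type macrophages, 2952 CPM in classical monocytes, 1237 CPM in cDC1, 692 CPM in resident macrophages and 39.1 CPM in B cells (11 UMIs). On AngII it ran from 3831 CPM (3631 to 4039) in neutrophils and 3422 CPM (3315 to 3532) in classical monocytes to 400 CPM in T cells and 393 CPM in cDC1. NK cells stood at 2859 CPM at steady state and 2381 CPM on AngII. Both members were unevenly spread among resident macrophages at steady state, where 53 of 106 cells held 0 UMIs of S100a4 and 53 held 0 UMIs of S100a6, while the highest cells held 111 and 120.

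S100a10, which holds annexin A2 and binds plasminogen at the cell surface, was highest in Ear2-type macrophages among the classes of at least 20 cells in both libraries, with 1970 CPM (1854 to 2091) at steady state and 1554 CPM (1493 to 1617) on AngII. The 9 AngII ILC2, at 1433 CPM (1165 to 1745), were not separated from them. Nonclassical monocytes (Ace, Treml4) and neutrophils were the low classes. Nonclassical monocytes held 59.6 CPM at steady state and 69.0 CPM on AngII, 5 UMIs each, and AngII neutrophils held 86.6 CPM (58.8 to 123).

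S100a11 was highest in neutrophils, at 8773 CPM in the 3 steady-state cells and 3984 CPM (3780 to 4197) on AngII. On AngII, classical monocytes (1895 CPM), cDC1 (1816 CPM) and cDC2 (1756 CPM) followed without clear gaps. Resident macrophages were low, with 196 CPM (171 to 224) at steady state, below Ear2-type macrophages at 943 CPM and not separated from B cells at 224 CPM, and with 543 CPM on AngII.

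Between the myeloid classes, classical monocytes exceeded resident macrophages for most members. At steady state, 3 of the 4 members with at least 50 UMIs in both classes together were at least 2 times higher in classical monocytes, where 11.4% of all genes were. These were S100a4 at 2.52 times (2.16 to 2.93), S100a6 at 4.26 times (3.73 to 4.86) and S100a11 at 4.37 times (3.39 to 5.59), while S100a10 was at 0.582 times (0.429 to 0.775). The median ratio of the 4 members was 3.39, against 0.924 over all genes. The steady-state values rest on 7 monocytes. On AngII, 4 of 6 members were at least 2 times higher in classical monocytes, against 3.76% of all genes, with a median of 2.29 against 0.885. S100a4 was at 2.49 times, S100a6 at 2.29 times, S100a8 at 2.29 times and S100a11 at 3.49 times (3.28 to 3.72), and S100a10 at 1.46 times (1.37 to 1.55). The S100a8 value was 0.840 times without the 3 highest cells of each class. S100a9, at 1.98 times, was at 2.08 times without the 1 monocyte rich in immunoglobulin UMIs, which made 5 of 6. Without the 3 highest cells of each class, however, S100a9 was lower in classical monocytes, at 33.9 CPM against 121 CPM in resident macrophages.

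Ear2-type macrophages also held more of several members than resident macrophages. At steady state all 4 members that reached 50 UMIs were at least 2 times higher in them, against 5.7% of all genes, S100a10 among them at 2.52 times, from 2.40 times (2.19 to 2.63) for S100a4 to 4.81 times (4.10 to 5.66) for S100a11. On AngII, 2 of 6 were, against 2.68% of all genes, namely S100a6 at 2.10 times and S100a11 at 2.18 times, with S100a4 at 1.77 times, S100a8 at 1.84 times and S100a10 at 1.79 times. Reparative macrophages differed from resident macrophages most in S100a11, at 2.13 times (1.98 to 2.29), the only member past 2 times, against 2.46% of all genes. Macrophages without a named type had 2 members past 2 times, S100a8 at 2.46 times and S100a9 at 2.40 times, against 1.6% of all genes.

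Nonclassical monocytes, the patrolling type, held less of most members than classical monocytes. At steady state 3 of 4 members were at least 2 times lower, against 9.98% of all genes, with S100a6 at 0.238 times (0.177 to 0.315), S100a10 at 0.131 times and S100a11 at 0.473 times. On AngII 4 of 6 were, against 17% of all genes, and S100a10 showed the widest gap, at 0.0544 times (0.0176 to 0.127). Of the 4, S100a8 at 0.174 times and S100a9 at 0.161 times rested on few cells, with 6 and 5 UMIs in nonclassical monocytes. Without the highest cell of each class, classical monocytes held 313 CPM and 216 CPM, against 41.9 CPM and 28.0 CPM in nonclassical monocytes. Without the 3 highest cells of each class, classical monocytes held 114 CPM and 33.9 CPM and nonclassical monocytes 0 UMIs of both. The upper Poisson limits of the latter were 57.3 CPM and 57.9 CPM, so S100a9 was then not separated. These classes were small, with 10 and 12 nonclassical monocytes.

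Neutrophils and classical monocytes on AngII were separated in opposite directions by different members. S100a8 was 59.7 times (54.7 to 65.2), S100a9 75.4 times (68.8 to 82.8) and S100a11 2.10 times (1.97 to 2.25) higher in neutrophils, 3 of 6 members where 14.7% of all genes were at least 2 times higher. The monocyte levels behind the first 2 ratios fell from 475 CPM to 114 CPM and from 429 CPM to 33.9 CPM without the 3 highest cells. S100a4, at 0.0290 times (0.0189 to 0.0426), and S100a10, at 0.0683 times, were the 2 members at least 2 times lower, against 20.3% of all genes. S100a6 was at 1.12 times (1.05 to 1.19). Against B cells, 4 of 6 members were at least 2 times higher in neutrophils, against 28.5% of all genes, with S100a8 at 2143 times (918 to 6603) and S100a11 at 13.2 times, while S100a4 was at 0.450 times, and at 2.30 times without the margin between classes and 1.23 times at 1000 UMIs per cell. Of 7 neutrophil genes, the 4 with 50 UMIs in both classes together (Retnlg, Slpi, Lcn2 and Csf3r) were all at least 2 times higher in neutrophils than in B cells. Retnlg and Csf3r were markers of the neutrophil gate, so their higher level there followed from the gate. Slpi and Lcn2 were not in the gate.

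Among dendritic cells on AngII, cDC1 and cDC2 differed in S100a4, at 0.0239 times as much in cDC1 (0.0192 to 0.0295), and in S100a6, at 0.155 times. S100a10, at 0.397 times, was the other of 3 members at least 2 times lower in cDC1, against 9.78% of all genes. S100a11 did not separate them, at 1.03 times (0.966 to 1.11). S100a8 and S100a9, with 3 and 6 UMIs in cDC2, were 2 members at least 2 times higher in cDC1, against 8.09% of all genes, and 136 of the 188 S100a8 UMIs and 154 of the 211 S100a9 UMIs of cDC1 lay in the highest cell.

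In resident macrophages, 4 of 6 members were at least 2 times higher on AngII than at steady state, against 6.63% of all genes, and the median ratio of the members was 2.46 against 1.02. S100a11 stood at 543 CPM against 196 CPM, a ratio of 2.77 (2.40 to 3.2). S100a6 stood at 1492 CPM against 692 CPM, a ratio of 2.16 (2.0 to 2.33). S100a8 and S100a9 stood at 231 (41.2 to 9120) and 241 (43.0 to 9514) times, ratios to 1 steady-state UMI each, and at 136 CPM and 121 CPM on AngII against 0 UMIs without the 3 highest cells of each library. S100a4, at 1.27 times (1.18 to 1.37), and S100a10, at 1.11 times (1.03 to 1.2), stayed under 2 times. At 1000 UMIs per cell the share of resident macrophages with a UMI was 26.7% at steady state and 52.9% on AngII for S100a4, 27.6% and 62.8% for S100a6, 35.2% and 42.9% for S100a10, and 18.1% and 37.7% for S100a11. When the level in B cells was subtracted as background, S100a6 went to 0.333 times, as AngII B cells held 1275 CPM of it. Of these B-cell UMIs, 406 of 482 lay in 3 of 93 cells, and the level was 242 CPM without them. Subtraction of that lower level was not run. With graph clusters in place of the gate, S100a8 stood at 0.241 times and S100a9 at 0.169 times, as the steady-state cluster of resident macrophages then held the 2 cells with 218 and 52 S100a8 UMIs that the gate left between classes.

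The lists of related genes show what else was measured beside them. Of 10 further S100 genes, only S100a1 and S100a13 had 50 UMIs in resident macrophages, with 123 and 102 CPM for S100a1 and 184 and 215 CPM for S100a13 at steady state and on AngII, and neither was past 2 times. Of 16 partner and receptor genes, 15 reached 50 UMIs in resident macrophages, of which 3 were at least 2 times higher on AngII, against 6.63% of all genes, and 1 lower, against 5.39% of all genes. Anxa2, the partner of S100a10, stood at 612 CPM against 233 CPM, 2.63 times (2.31 to 3.00), Myd88, the adaptor of TLR4, at 3.30 times and the activation marker Cd69 at 4.79 times from 5 steady-state UMIs. Cd36, a scavenger receptor, stood at 0.187 times (0.168 to 0.207). Anxa1, the partner of S100a11, stood at 2.0 times (1.69 to 2.37), just under the limit of 2, and Tlr4 at 0.799 times (0.604 to 1.07). Ager, the receptor for advanced glycation end products, held 3 UMIs or fewer there. In classical monocytes 12 partner genes reached 50 UMIs, of which Anxa11, Ly96 and Bsg were past 2 times, against 12.7% of all genes, with 1, 2 and 9 steady-state UMIs, and none was at least 2 times lower, against 9.68% of all genes. Of 7 neutrophil genes, the receptor gene Csf3r alone reached 50 UMIs in resident macrophages, at 67.9 CPM against 15.3 CPM, and Retnlg held 44 UMIs on AngII and 0 at steady state. Csf3r and Retnlg were also markers of the neutrophil class.

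Ear2-type macrophages gave another picture. There 2 of 6 members were at least 2 times higher on AngII, against 6.23% of all genes, and both were calprotectin genes. S100a8 was at least 69.7-fold higher, computed against 3 UMIs since none was found in the 22 steady-state cells, and S100a9 stood at 191 times 1 UMI. Without the 3 highest cells of each library their AngII levels were 251 CPM and 211 CPM in place of 382 CPM and 350 CPM. The other 4 lay between 0.789 times (S100a10, 0.734 to 0.848) and 1.25 times (S100a11, 1.14 to 1.39), with S100a6 at 1.04 times (0.981 to 1.1).

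In classical monocytes, 4 of 6 members were at least 2 times higher on AngII, against 12.7% of all genes. S100a10 stood at 1268 CPM against 456 CPM, 2.78 times (2.10 to 3.77), and S100a11 at 1895 CPM against 857 CPM, 2.21 times (1.80 to 2.75). S100a8 stood at 2.48 times (1.61 to 4.04), and S100a9 was at least 15.7-fold higher, against 0 UMIs at steady state. S100a4, at 1.26 times, and S100a6, at 1.16 times, were already high in the 7 steady-state cells. Without the 3 highest cells of each library, S100a10 stood at 4.44 times and S100a11 at 5.35 times. These ratios are no check on the rise, because 3 cells are a large part of 7 monocytes and a small part of 164. The steady-state levels fell to 254 CPM for S100a10 and 323 CPM for S100a11, and the AngII levels only to 1126 CPM and 1728 CPM. For the calprotectin genes the AngII levels themselves fell strongly, as 3 AngII cells held 447 of the 483 S100a9 UMIs. Without the 3 highest cells S100a9 was at 33.9 CPM and S100a8 at 114 CPM, each against 0 steady-state UMIs, with lower limits of the ratio of 0.498 and 1.51, so neither was then shown to be 2 times higher. Without the highest cell alone, S100a8 stood at 7.30 times (2.82 to 26.9), from 4 steady-state UMIs in place of 21.

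In nonclassical monocytes, 1 of the 3 members that reached 50 UMIs was at least 2 times higher on AngII, against 2.01% of all genes. It was S100a11, at 1159 CPM against 405 CPM, 2.86 times (1.90 to 4.39).

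In cDC1, 3 members were at least 2 times lower on AngII, against 5.62% of all genes, and 2 at least 2 times higher, against 10.2%. S100a10 stood at 281 CPM against 801 CPM, 0.350 times (0.295 to 0.418), and was at 0.394 times without the 3 highest cells of each library. S100a4 at 0.161 times and S100a6 at 0.318 times rested on few of the 11 steady-state cells, in which 1 cell held 63 of 87 S100a4 UMIs and 1 cell 152 of 289 S100a6 UMIs. Without the 3 highest cells they stood at 5.23 times, from 1 steady-state UMI, and at 1.05 times. Leaving out 3 cells weighs more on the 11 steady-state cells than on the 120 AngII cells, so these 2 ratios are not firm either. S100a8 and S100a9 were at least 9.53-fold and 10.7-fold higher, against 3 UMIs. Without the highest AngII cell their levels fell from 122 CPM to 34.7 CPM and from 137 CPM to 38.1 CPM, with lower limits of the ratio of 1.99 and 2.19, and without the 3 highest cells these limits were 1.15 and 1.42.

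**Figure D3:**
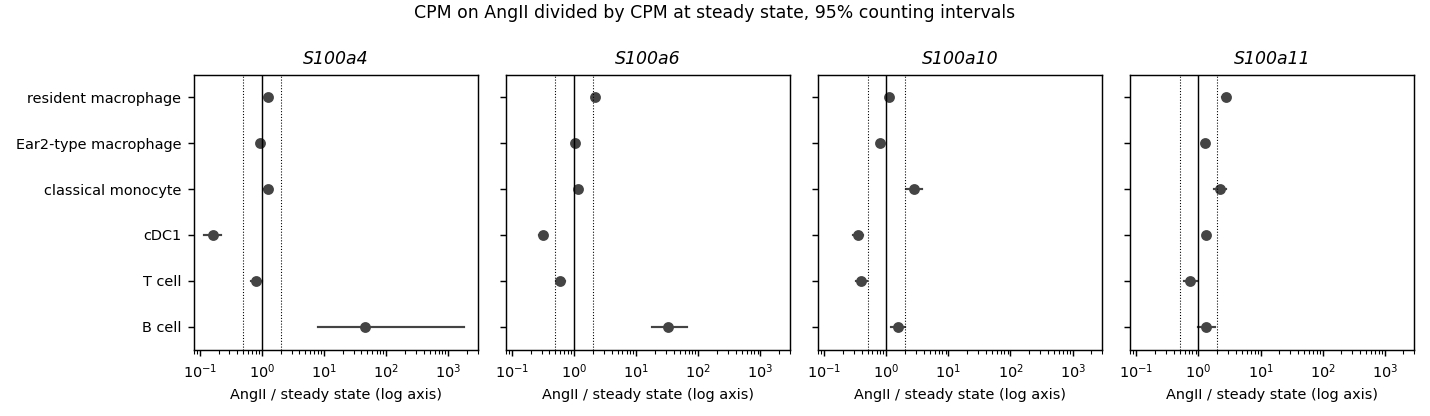
CPM on AngII divided by CPM at steady state (log axis) for S100a4, S100a6, S100a10 and S100a11 in 6 classes, with exact 95% counting intervals. The solid line marks equal levels and dotted lines 2 times lower and higher. S100a11 is above the upper dotted line in resident macrophages (2.77) and classical monocytes (2.21), S100a10 below the lower one in cDC1 (0.350) and T cells (0.397), and S100a4 and S100a6 far above in B cells (45.4 and 32.6).

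T cells had 2 members at least 2 times higher on AngII, S100a8 (21 times 1 UMI) and S100a9 (at least 7.17-fold), against 21.2% of all genes, and 1 at least 2 times lower, against 5.83%. That was S100a10, at 228 CPM against 576 CPM, 0.397 times (0.327 to 0.482), at 0.529 times without the highest cell of each library and at 1.14 times in graph clusters. S100a4, at 0.815 times, and S100a6, at 0.600 times, turned on 1 steady-state cell that held 81 of 144 S100a4 UMIs and 104 of 204 S100a6 UMIs. This cell held 15 UMIs of Cd3e, 14 of the gamma delta receptor gene Trdc and 0 of Trac. Without the highest cell of each library S100a4 stood at 1.5 times and S100a6 at 1.07 times. Among T cells at steady state 27 of 36 held 0 S100a4 UMIs, while the 3 highest held 81, 18 and 12. For S100a6 the 3 highest held 104, 33 and 28. With such cells among them, T cells are not a clean background for S100a4 or S100a6.

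B cells had 2 of 4 members at least 2 times higher on AngII, against 2.61% of all genes. S100a6 stood at 1275 CPM against 39.1 CPM, 32.6 times (18 to 65.7). Of its 482 UMIs, 406 lay in 3 of 93 cells with 188, 164 and 54. All 3 held B-cell transcripts, with 57, 39 and 36 UMIs of Cd79a, and all 3 were among the 29 B cells that also held gate markers of a myeloid class. They were deep cells, with 33712, 15621 and 14928 UMIs in all, of which 0, 3 and 2 were Lyz2. The 29 cells had a median of 6425 UMIs against 1488 in the others, so this split also follows depth. In the other 64 AngII B cells S100a6 was at 244 CPM (175 to 330), and in the 36 such steady-state cells at 25.2 CPM (8.19 to 58.9). S100a4 stood at 161 CPM against 3.56 CPM, the latter 1 UMI, and 27 of its 61 AngII UMIs lay in the first of these cells. In the 64 cells it was at 113 CPM (68.0 to 176). The part of doublets in these values was not tested. S100a10, at 1.55 times, and S100a11, at 1.35 times (0.981 to 1.86), changed less.

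**Figure D4:**
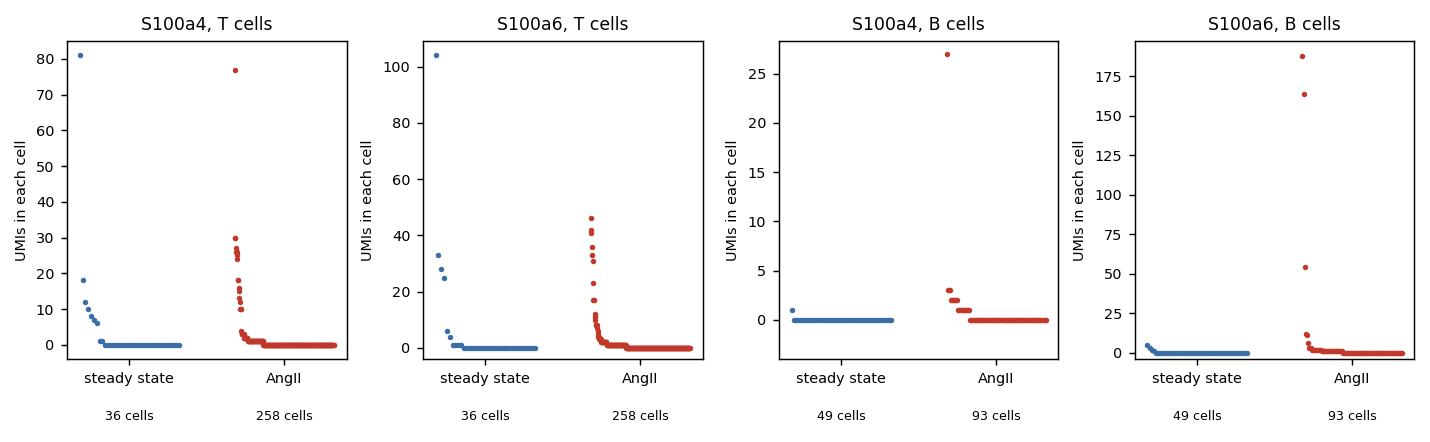
UMIs of S100a4 and S100a6 in each T cell (36 at steady state, 258 on AngII) and B cell (49 and 93), sorted from high to low. The highest points, 81 and 104 UMIs in 1 steady-state T cell and 188, 164 and 54 S100a6 UMIs in 3 AngII B cells, stand above nearly all other cells, most of which are at or near 0.

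Set against B cells of the same library, 3 of 6 members were at least 2 times higher in resident macrophages on AngII, against 29.9% of all genes. These were S100a4 at 6.22 times (4.83 to 8.15), S100a8 at 15.7 times (6.69 to 48.4) and S100a9 at 11.7 times (5.64 to 29.2), while S100a6 was at 1.17 times. At steady state 3 of 4 were, against 28.9% of all genes, with S100a6 at 17.7 times (9.84 to 35.6), S100a10 at 2.32 times and S100a11 at 0.875 times (0.658 to 1.18).

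Cells with a Yfp UMI were compared with those without among resident macrophages. At steady state 80 cells were Yfp+ and 26 Yfp-, and 2 of 4 members were at least 2 times higher in Yfp+ cells, against 5.32% of all genes. S100a4 stood at 871 CPM against 293 CPM, 2.97 times (2.22 to 4.08), and S100a10 at 848 CPM against 393 CPM, 2.16 times (1.67 to 2.84). S100a6 and S100a11 both stood at 1.77 times. None was at least 2 times lower, against 1.62% of all genes. On AngII, with 173 Yfp+ and 360 Yfp- cells, none of 6 was at least 2 times higher, against 1.14% of all genes, and none at least 2 times lower, against 0.289%. The ratios there ran from 0.747 times (S100a8, 0.642 to 0.870) to 1.23 times (S100a10, 1.14 to 1.32). Yfp+ cells were deeper, with medians of 10566 against 5770.5 UMIs at steady state and 8324 against 1567.5 on AngII, so Yfp and depth cannot be told apart by the call alone. At 1000 UMIs per cell the steady-state ratio was 1.95 for S100a4 and 0.982 for S100a6.

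Across the 15 groups of class and library with at least 20 cells, S100a8 and S100a9 had nearly the same pattern, with a Pearson correlation of log2(CPM + 10) of 0.996. S100a4 was correlated with S100a6 at 0.697 and with S100a10 at 0.696, but with S100a8 at -0.01. A total of 2958 genes, S100 genes among them, held at least 200 UMIs in each library. Among those outside the family, the nearest to S100a4 were Tmem176a (0.944), Tmem176b (0.936) and Itgb1 (0.823). The nearest to S100a6 were Map7d1 (0.893), Socs3 (0.876) and Fosl2 (0.849). S100a8 was nearest to Elob (0.865), Gsr (0.862) and Ppp1r2 (0.842), and S100a9 to Elob (0.878), Ppp1r2 (0.870) and Msrb1 (0.854). S100a10 was nearest to Dmac1 (0.877), Ahnak (0.871), the gene of a large scaffold that S100A10 binds, and Emp3 (0.859), and S100a11 to Pim1 (0.930), Tet2 (0.921) and Ubl5 (0.920). The groups share their library and its depth, and neutrophils set the upper end for S100a8 and S100a9, so these values describe likeness only.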

How the data were processed

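Single CD45+ cells of the adventitia were counted in 1 library per condition, pooled from 3 animals at steady state and 2 on AngII. The authors demultiplexed the 10x 3′ reads, aligned them with Cell Ranger 3.1.0 (GRCm38.p6, annotated by GENCODE M24, plus the eYFP sequence) and deposited raw UMI counts per gene and barcode of called cells. No comparison columns were used. Barcodes needed 300 to 6500 detected genes and no more than 5% mitochondrial UMIs, which left 3647973 UMIs at steady state and 18008885 on AngII. No columns of per-sample values were left unused (0).

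Cells were given a class from 18 marker lists without S100 genes. For each class, the score averaged over its markers log2(1 + counts per 10k UMIs), each divided by the mean of the top 10 cells. A class needed at least 3 marker UMIs over at least 2 marker genes and 1.5 times the score of the next class, and 7 and 360 cells lay within 10% of that margin. Macrophages without a leading subtype were kept as a class. Levels (CPM) are summed counts per 1000000 UMIs of the class, with exact Poisson intervals, ratios have exact conditional binomial intervals and shares Clopper-Pearson intervals, all at 95% and for counting error only. With 1 library per condition no test was run and no p-value is given. A gene was compared when both groups together held at least 50 UMIs, and counted from 2 times. A level of 0 was replaced by 3 UMIs for a bound, also where 0 UMIs are said to allow a level. That bound lies below the upper Poisson limit. Cells with at least 1 EYFP UMI were Yfp+. For equal depth, cells were thinned to 1000 UMIs, which left out 3 cells at steady state and 1910 on AngII. No doublet caller was run, and cells with marker UMIs of both a lymphocyte and a myeloid class were left out in an alternative.

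Named genes were the 6 members, 10 further S100 genes, 16 partner and receptor genes, 7 neutrophil genes, EYFP and, for each member, the 3 genes with the highest correlation. Single cells, other marker genes and pseudogenes were named after their values were seen. The members and lists were chosen with earlier results of these data known. Alternatives changed the gate, the margin, the gene minimum, the depth, the background, the clusters and the single cells that were left out. The steps were tested on simulated data. Coordinates are from GENCODE M21 on GRCm38, and sequences and starts from RefSeq on GRCm38.p6. Python 3.11.15, NumPy 2.4.6, SciPy 1.17.1, pandas 2.3.3, Scanpy 1.11.5, leidenalg 0.10.2 and Matplotlib 3.10.9 were used.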

Additional observations from a re-analysis of the deposited data

Results flagged for a closer look

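Among resident macrophages, classical monocytes, B cells and T cells, AngII over steady state went in opposite directions in T cells and in 2 or 3 of the other classes, by ratios whose difference was not tested. S100a4 stood at 1.27 in resident macrophages, 1.26 in classical monocytes and 45.4 in B cells against 0.815 in T cells. S100a6 stood at 2.16, 1.16 and 32.6 in these classes against 0.600 in T cells. S100a10 stood at 1.11, 2.78 and 1.55 against 0.397 in T cells, and S100a11 at 2.77 in resident macrophages and 2.21 in classical monocytes against 0.738 in T cells. Without the highest cell of each library, the T-cell ratios were 1.5 for S100a4, 1.07 for S100a6, 0.529 for S100a10 and 0.966 for S100a11. Other classes were also under 1, with cDC1 at 0.161 for S100a4, 0.318 for S100a6 and 0.350 for S100a10, and Ear2-type macrophages at 0.937 for S100a4 and 0.789 for S100a10.

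S100a10 in classical monocytes over resident macrophages stood at 1.46 on AngII and 0.582 at steady state, and S100a11 in Yfp+ over Yfp- resident macrophages at 1.77 at steady state and 0.882 on AngII. These differences were not tested either.

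The 221 AngII barcodes that the filter removed held 501 CPM of S100a8 and 453 CPM of S100a9, above the 53.7 and 56.2 CPM of T, B and NK cells, whereas the 40 barcodes removed at steady state held 0 UMIs of both. Of the 221, 29 held an S100a8 UMI, the highest with 217.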

How the results depend on the processing

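Of 120 alternatives for the 10 counts of members past 2 times, 106 stayed within 1.5 times of the reported count and 14 did not. The count for B cells on AngII over steady state, reported as 2, was 1 with at least 1000 genes per cell, with the stricter gate, in graph clusters, at 1000 UMIs per cell, and without the highest cell or the 3 highest cells. It was 0 without cells that held lymphocyte and myeloid markers, where S100a4 and S100a6 fell under 50 UMIs. The count for T cells, reported as 2, was 0 with at least 1000 genes and 4 in graph clusters and without the 3 highest cells. The count was 2 in place of 4 for classical monocytes at 1000 UMIs and for resident macrophages in graph clusters, and 5 in place of 3 for resident macrophages over B cells at 1000 UMIs. In graph clusters 2 members, S100a8 and S100a9, were lower in Yfp+ resident macrophages on AngII, where 0 were reported.

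Of 595 alternatives for single members in these 10 comparisons, 413 were classed as the same as the reported value, 175 as moved from it and 7 as reversed. By direction alone, 563 kept theirs, so a kept direction often went with a changed size. Values without the highest cells for cDC1, Ear2-type macrophages and nonclassical monocytes stand in the report and are not among the 595. On AngII over steady state, graph clusters gave 1.14 for S100a10 in T cells and 0.241 and 0.169 for S100a8 and S100a9 in resident macrophages, and subtraction of the B-cell level gave 0.333 for S100a6 in resident macrophages. S100a4 in neutrophils over B cells stood at 2.30 without the margin and 1.23 at 1000 UMIs. S100a8 in classical monocytes over resident macrophages on AngII stood at 0.840 without the 3 highest cells. Other causes were not tested. Graph clusters were not run for classical monocytes at steady state, where no such cluster formed, nor B-cell subtraction where B cells were compared. Depth limits the steady-state classes of 3 to 11 cells and low levels in AngII cells. No paired analysis was possible because each condition was 1 library.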
